A study of Mus musculus with 6 samples.

Results

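The genes described here are 9 genes of blood coagulation and plasminogen activation, among 19505 genes measured on expression arrays in macrophages grown on an implant polymer. They are Procr, Plaur, Thbd, Plau, Plat, Serpinb2, F3, F7 and F10. They were taken by symbol through the platform annotation, and each matched 1 probe set. They were selected on their function and with their log2 signal differences between the surfaces already known, so those differences, and the calls on them, are given as a description and support nothing. RAW264.7 cells, a macrophage-like line from a mouse tumour induced by Abelson leukaemia virus, were kept for 3 days on a modified polyetheretherketone (PEEK) surface (3 arrays) or on the unmodified polymer, pristine PEEK, the control (3 arrays). All cells grew in high-glucose DMEM with fetal bovine serum and penicillin-streptomycin, and how the surface was modified is not given in the labels. The samples come from 1 cell line with no other cells added. The labels do not say whether the replicates of a surface were separate experiments, so p-values measure the spread between these samples alone, which may be technical.

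Coagulation starts when tissue factor, the product of F3, binds factor VIIa and the pair activates factor X, which then makes thrombin. Thrombin bound to thrombomodulin (Thbd) activates protein C, and the endothelial protein C receptor (Procr) speeds that step. Clots and matrix are dissolved by plasmin, which urokinase (Plau) and tissue plasminogen activator (Plat) release from plasminogen. The urokinase receptor (Plaur) holds urokinase on the cell surface, and the serpin PAI-2 (Serpinb2) inhibits both activators. Macrophages are a known source of urokinase, its receptor and PAI-2, while factors VII and X in plasma come mainly from the liver.

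The sequence before the gene start is shown for 5 of these genes. A short pattern named here for AP-1 factors, TGANTCA with any base at N, stands in 4 of them. Its middle base is C in Procr and Plaur, A in Serpinb2, and both A and G in F3. The windows come from RefSeq on build GRCm38.p6, where 6 of the 9 members matched. Plau, Plat and Thbd had no window there and were not searched. Those shown run from 220 to 63 bases before the start, all on the plus strand, with AP-1 matches in capitals. The windows lie at chr2:155750997-155751154 (Procr), chr7:24462263-24462420 (Plaur), chr1:107511203-107511360 (Serpinb2), chr3:121723317-121723474 (F3) and chr8:13037088-13037245 (F10). Of the windows shown, only that of F10 is without a match, and the F7 window, not shown, has none either. AP-1 is the motif chosen for display out of 9 searched.
Procr: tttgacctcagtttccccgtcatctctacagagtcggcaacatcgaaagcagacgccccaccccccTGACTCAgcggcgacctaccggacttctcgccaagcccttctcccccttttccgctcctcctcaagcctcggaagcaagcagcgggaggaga
Plaur: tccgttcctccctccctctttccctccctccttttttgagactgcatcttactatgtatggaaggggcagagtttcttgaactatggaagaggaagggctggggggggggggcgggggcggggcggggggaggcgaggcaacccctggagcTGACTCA
Serpinb2: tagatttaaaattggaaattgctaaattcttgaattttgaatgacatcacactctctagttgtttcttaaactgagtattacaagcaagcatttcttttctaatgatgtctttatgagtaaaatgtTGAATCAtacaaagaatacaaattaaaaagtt
F3: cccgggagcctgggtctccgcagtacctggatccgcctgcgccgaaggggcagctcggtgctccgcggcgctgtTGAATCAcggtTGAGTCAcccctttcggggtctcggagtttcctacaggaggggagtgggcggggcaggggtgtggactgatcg
F10: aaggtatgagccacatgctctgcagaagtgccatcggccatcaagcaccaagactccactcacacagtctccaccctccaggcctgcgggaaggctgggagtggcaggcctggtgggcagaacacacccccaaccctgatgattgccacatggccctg

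Within 250 bases before the start, TGANTCA occurred in 4 of the 6 members (Procr, Plaur, Serpinb2 and F3), and in 6.75% of 32851 promoter windows of that length. F3 held it at 2 places, from -146 to -140 and from -135 to -129, and the match lay from -154 to -148 in Procr, from -69 to -63 in Plaur and from -94 to -88 in Serpinb2. RefSeq lists another start for Serpinb2, whose window held the same match. F7 and F10, neighbours on chromosome 8 in that assembly, held none. A C/EBP motif, TTGCNNAA, occurred in Procr, Plaur and Serpinb2 (9.56% of all windows). The Ets/PU.1 motif GAGGAA occurred in Plaur and F7 (23.3% of windows), the GC box GGGCGG in Plaur and F3 (32.7%), and a TATA box, TATAAA, in Serpinb2 (12.4%). A STAT motif, TTCNNNGAA, was found for the other Serpinb2 start alone (7.02% of windows). An E-box, CACGTG (6.02%), an IRF motif, GAAANNGAAA (2.98%), and the NF-kB consensus (5.00%) were not found in these windows. Both strands were searched, the 3 GC boxes of Plaur lie end to end or overlap by a base, and a match is a stretch of letters, not a shown binding site.

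**Figure D1:**
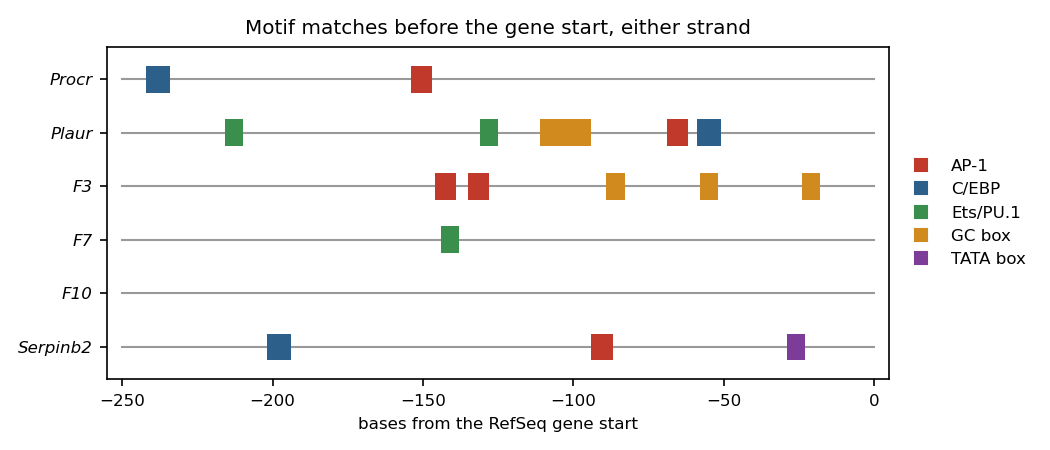
Position of motif matches in the 250 bases before the RefSeq gene start (x axis, in bases) for the 6 members with a promoter window, 1 row per gene, with the first listed start of Serpinb2. Red blocks, the AP-1 motif, stand in Procr, Plaur, F3 (at 2 places) and Serpinb2, and no block stands in the F10 row.

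The deposited values were log2 signals from 0.941 to 12.4, with array medians over genes of 4.98 to 5.10. Background was set at 3.72, the level that 95% of 1412 odorant and pheromone receptor genes stayed under in mean signal. Of 8 macrophage markers measured, 7 were above it, among them Lyz2, Spi1, Csf1r and Cd14; Mertk was not. The markers passed in both directions, with Adgre1 and Mertk higher and Fcgr1 and Itgam lower on modified PEEK (limma). Their log2 signals summed to 75.6 to 75.9 on modified and 76.1 to 76.5 on pristine PEEK. Of 27 measured markers of endothelial, fibroblast, liver, megakaryocyte and epithelial cells, 0 passed limma at an adjusted p under 0.05 and 1 had an unadjusted p under 0.05. Of the endothelial markers, 6 of 7 lay at or below background on both surfaces. Their sum ran from 21.0 to 22.2 on modified and from 22.0 to 22.4 on pristine PEEK. Above background on at least 1 surface were 4 of 6 liver and 3 of 4 megakaryocyte markers. The same held for 3 of 5 epithelial and 2 of 5 fibroblast markers. A signal above this background alone does not show that a gene is expressed. An array cannot tell fewer cells of a kind from less RNA per cell.

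Procr, Plaur, Plau and Serpinb2 were lower on modified PEEK, F10 was slightly higher, and Thbd, Plat, F3 and F7 lay at overlapping levels. The arrays of the surfaces did not overlap for 5 of the 9 members, and for 28.8% of all genes. In limma's fit across all genes the same 5 members had an adjusted p under 0.05, 4 lower and 1 higher, where 10.4% of all genes did (5.15% lower and 5.24% higher). Since the members were picked with this contrast known, nothing is read from that count. Without 1 array, 3 or 4 members were called: Serpinb2 was not called without pristine replicate 1 or 3 or modified replicate 1 or 3, nor F10 without pristine replicate 1, 2 or 3 or modified replicate 2. F10 was not called with the replicate number as a block, and Plau was not called with arrays scaled to the poly-A spikes. Their median log2 difference, modified minus pristine, was -0.13, and that of all genes 0.0088.

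**Figure D2:**
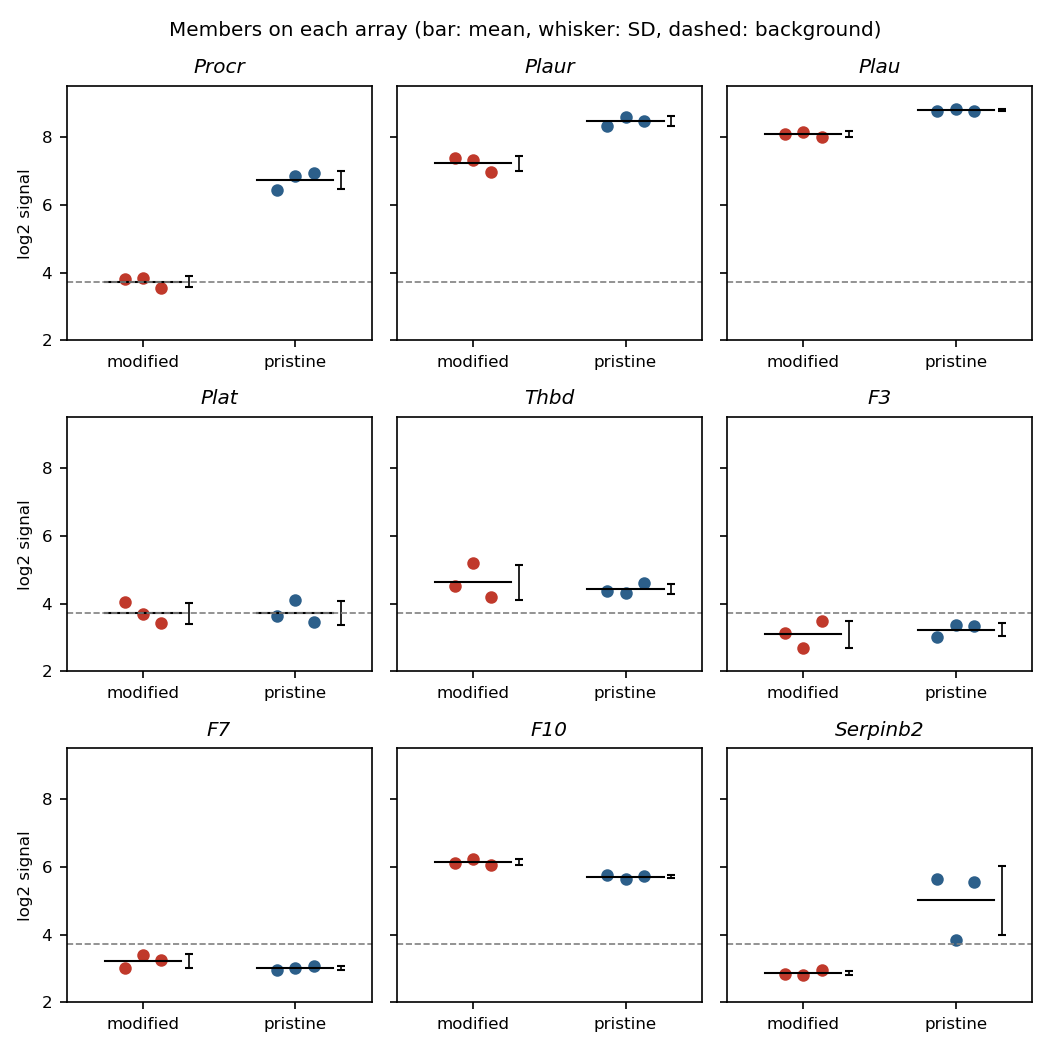
Log2 signal (y axis) of each member on the 3 modified PEEK arrays (red, left) and the 3 pristine PEEK arrays (blue, right), with the mean as a bar, the SD as a whisker and the background of 3.72 as a dashed line. Procr, Plaur, Plau and Serpinb2 are lower on every modified PEEK array, and 1 pristine PEEK array of Serpinb2 sits at 3.83, next to the background.

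Procr, the receptor that presents protein C for activation, differed most. Its log2 signal was 3.82, 3.83 and 3.54 on modified PEEK and 6.44, 6.84 and 6.92 on pristine PEEK. Every modified array lay more than 2 log2 units under every pristine one, and 2 of the 3 modified arrays were just above background. The difference was -3.00 ± 0.15 (SE, n = 3 each), an 8.01-fold lower signal and the sixth lowest difference of all genes. Because the modified mean of 3.73 stands next to the background of 3.72, that fold is close to a lower bound.

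Plaur, the urokinase receptor, had signals of 7.38, 7.31 and 6.96 on modified PEEK and 8.32, 8.60 and 8.48 on pristine PEEK. All 6 values stood well above background and the surfaces were apart, with a difference of -1.25 ± 0.14 (SE, n = 3 each), or 2.37-fold lower. For both receptors the lowest modified array was replicate 3 and the lowest pristine array was replicate 1. Thbd, the thrombin-binding receptor that works with Procr, gave 4.51, 5.19 and 4.19 on modified PEEK and 4.38, 4.32 and 4.59 on pristine PEEK. The groups overlapped, the highest value was modified replicate 2, and the difference was 0.20 ± 0.23 (SE), smaller than its error. Without modified replicate 2 the difference was -0.0796, on the other side of 0.

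Plau, which encodes the protease urokinase, had signals of 8.10, 8.16 and 7.99 on modified PEEK and 8.76, 8.81 and 8.77 on pristine PEEK. The replicates of each surface lay close together (SD 0.082 and 0.029), and the difference was -0.70 ± 0.09 (SE, n = 3 each), or 1.62-fold lower. With arrays scaled to the poly-A spikes it was -0.45. Plat, the other plasminogen activator, gave 4.03, 3.68 and 3.41 on modified PEEK and 3.63, 4.12 and 3.44 on pristine PEEK. These values straddle the background, with 1 array above it on each surface, so the difference of -0.0211 ± 0.21 (SE) describes signals that were not well measured. The mRNAs of urokinase and of its receptor were both lower, while no difference in Plat could be resolved at these signals.

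Serpinb2, encoding the urokinase inhibitor PAI-2, had signals of 2.83, 2.82 and 2.95 on modified PEEK and 5.64, 3.83 and 5.55 on pristine PEEK. No modified array reached background, and the pristine arrays split, with replicate 2 close to background and the others well above it. The pristine SD of 1.02 is set beside a median within-surface SD of 0.15 over all genes. The difference was -2.14 ± 0.42 (SE, n = 3 each), and the signal was at least 2.44-fold lower when the background stands for the modified level. Without pristine replicate 2, the lowest pristine array, the pristine mean was 5.59 and the difference -2.73. Without pristine replicate 1 the difference was -1.82, and without pristine replicate 3 it was -1.87. In those 2 cases the pristine mean is lower, so the bound falls under 2.44-fold.

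Among the clotting factors, F10, the gene of factor X, had signals of 6.12, 6.24 and 6.06 on modified PEEK and 5.75, 5.65 and 5.72 on pristine PEEK. It was the one member whose arrays were all higher on modified PEEK, by 0.43 ± 0.09 (SE, n = 3 each), or 1.35-fold. F7, the neighbouring gene that encodes factor VII, gave 3.01, 3.41 and 3.25 on modified and 2.96, 3.02 and 3.07 on pristine PEEK. F3, the tissue factor gene, gave 3.15, 2.69 and 3.48 on modified and 3.01, 3.36 and 3.33 on pristine PEEK. Every array of F7 and of F3 was below background and the groups overlapped, so neither has a usable fold. Proz, the next gene after F10 in the assembly and the source of protein Z, a cofactor for inhibition of factor Xa, gave 4.67 ± 0.32 on modified and 4.64 ± 0.26 on pristine PEEK (SD, n = 3). Proz was singled out after its values were seen.

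**Figure D3:**
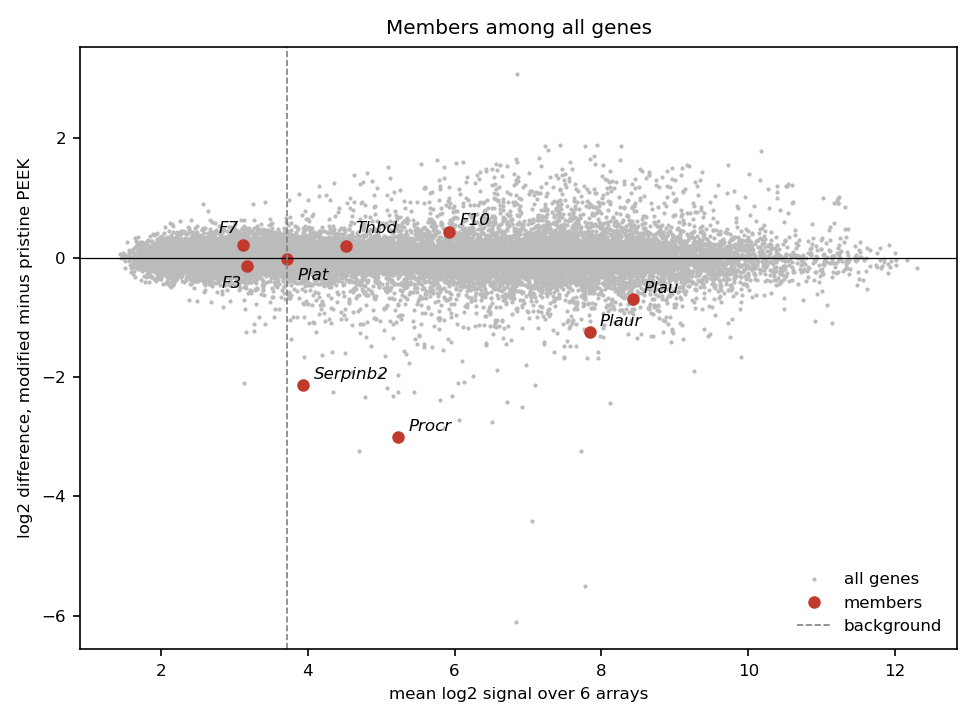
Mean log2 signal over the 6 arrays (x axis) against the log2 difference, modified minus pristine PEEK (y axis), for all 19505 genes (grey) and the members (red), with the background of 3.72 dashed. Procr at -3.00 and Serpinb2 at -2.14 lie at the lower edge of the cloud, Plaur is at -1.25 and Plau at -0.70, and the other members are near 0 or, for F10, at 0.43.

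The genes nearest to Procr in pattern, by root mean square difference of log2 signals over the 6 arrays after centring each gene on its mean, were Emp2, a small membrane protein gene (0.16), the chemokine gene Cxcl2 (0.23) and the iron exporter gene Slc40a1 (0.29). Their differences between surfaces were -2.75, -3.23 and -2.85 in that order, beside -3.00 for Procr. Nearest to Plaur were the peptide and histidine transporter gene Slc15a3 (0.0691), the cytochrome oxidase subunit gene Cox6a2 (0.0762) and the selenoprotein gene Selenow (0.10), with differences of -1.31, -1.24 and -1.18. All of these distances are over the same 6 arrays and are set mainly by the step between surfaces.

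Beyond the members, 65 further genes in 7 lists were examined, of which 59 were measured. The lists cover the clotting and fibrinolysis system, except that of clade B serpins. That list, with 15 measured genes, was made by gene family and not by a role in clotting. With limma, 7 passed at an adjusted p under 0.05, 1 higher and 6 lower on modified PEEK. That is 11.9% of the 59, near the 10.4% of all genes, and the median difference of the 59 was -0.0631. Of the 7 that passed, 4 were clade B serpins, so 11.9% is not the share of the clotting and fibrinolysis genes alone. Of the 59, 20 lay at or below background on both surfaces. The lists were drawn up with results of these arrays known.

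Of 15 measured genes in the clotting cascade list, 1 fell and 0 rose, where 10.4% of all genes passed. The gene that fell encodes a transport protein and not a clotting factor. Mcfd2, which with Lman1 forms the receptor that carries factors V and VIII out of the endoplasmic reticulum, fell to 6.54 ± 0.19 on modified PEEK, against 7.43 ± 0.04 on pristine PEEK (SD, n = 3; limma difference -0.89, adjusted p = 0.00203). Its partner Lman1 was at 9.13 ± 0.09 on modified and 9.36 ± 0.07 on pristine PEEK and did not pass (SD, n = 3; limma adjusted p = 0.220). F9, the gene of factor IX, was at 5.41 ± 0.39 on modified and 4.94 ± 0.29 on pristine PEEK (SD, n = 3; limma adjusted p = 0.247). The fibrinogen genes Fga, Fgb and Fgg, the factor V gene F5 and the prothrombin gene F2 did not pass either.

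Another 4 lists, with 22 measured genes, are grouped here because no gene in them passed limma at an adjusted p under 0.05. In the same limma fit 3 of the 22 had an unadjusted p under 0.05, where 22.7% of all genes did. Because of the grouping, nothing is read from that share. With an intensity trend in eBayes, 2 of the 22 passed. Among the 10 anticoagulant genes the brightest were Anxa5, whose product covers the phosphatidylserine that clotting complexes need (11.11 ± 0.03 on modified and 11.26 ± 0.06 on pristine PEEK), and Pros1, the cofactor of activated protein C (6.56 ± 0.18 and 6.30 ± 0.08, SD, n = 3). In the vitamin K cycle, which equips factors VII and X to bind calcium, Vkorc1 was at 9.12 ± 0.13 on modified and 8.88 ± 0.09 on pristine PEEK, and Vkorc1l1 at 8.14 ± 0.15 and 8.20 ± 0.04. The thrombin receptor gene F2r was at 4.35 ± 0.16 on modified and 4.68 ± 0.34 on pristine PEEK, and F2rl2 at 4.11 ± 0.59 and 4.05 ± 0.40. Of plasminogen and its inhibitors, Serpinf2, which encodes the plasmin inhibitor of plasma, was at 4.92 ± 0.11 on modified and 4.68 ± 0.30 on pristine PEEK, and Vtn, the vitronectin gene, at 4.82 ± 0.29 and 4.84 ± 0.45.

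Of 7 measured genes for plasminogen binding and uptake, 2 fell and 0 rose, and these encode both chains of the integrin Mac-1, a leukocyte receptor that binds fibrinogen and plasminogen and associates with the urokinase receptor. Over all genes 10.4% passed in the same fit. When eBayes used an intensity trend 5 of the 7 passed, 2 of them higher. Itgam had signals of 9.49, 9.64 and 9.46 on modified PEEK and 10.13, 10.12 and 10.11 on pristine PEEK, a limma difference of -0.59 ± 0.09 (SE, n = 3 each; adjusted p = 0.00544). Itgb2 had signals of 9.14, 9.08 and 8.92 on modified PEEK and 9.38, 9.55 and 9.43 on pristine PEEK, a limma difference of -0.41 ± 0.10 (SE, n = 3 each; adjusted p = 0.0410). The surfaces did not overlap for either gene, nor for Lrp1, S100a10 and Plgrkt of the same list, nor for 28.8% of all genes. The Itgb2 call was lost without pristine replicate 1, 2 or 3 or modified replicate 2 or 3 (limma adjusted p up to 0.156), with arrays centred on their medians (0.0757) and with the replicate number as a block (0.108). Both calls were lost with arrays scaled to the poly-A spikes (limma adjusted p = 0.213 for Itgam and 0.502 for Itgb2). The clearance receptor gene Lrp1, which takes up urokinase bound to its inhibitor, was at 10.34 ± 0.04 on modified and 10.10 ± 0.04 on pristine PEEK (SD, n = 3; limma adjusted p = 0.133). S100a10, part of a plasminogen receptor with annexin A2, was at 9.77 ± 0.04 on modified and 9.55 ± 0.04 on pristine PEEK (SD, n = 3; limma adjusted p = 0.165).

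Clade B serpins, the family of intracellular protease inhibitors to which PAI-2 belongs, held 3 genes that fell and 1 that rose among 15 measured. Over all genes 5.15% passed lower and 5.24% higher. The list was drawn up with results of these arrays known, so nothing is read from its count. Serpinb9b had signals of 4.32, 4.87 and 4.31 on modified PEEK and 6.06, 6.35 and 6.37 on pristine PEEK, a limma difference of -1.76 ± 0.17 (SE, n = 3 each; adjusted p = 0.000549). Serpinb9, whose product inhibits granzyme B, had 5.16, 4.51 and 4.59 on modified PEEK and 5.65, 5.83 and 5.87 on pristine PEEK, a limma difference of -1.03 ± 0.17 (SE, n = 3 each; adjusted p = 0.00721). Serpinb6a fell to 8.64 ± 0.08 on modified PEEK, against 9.09 ± 0.13 on pristine PEEK (SD, n = 3; limma adjusted p = 0.0328). The Serpinb6a call was lost without pristine replicate 2 or 3 or modified replicate 2 or 3 (limma adjusted p up to 0.130), with arrays centred on their medians (0.0664), with the replicate number as a block (0.109) and with arrays scaled to the spikes (0.388).

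Serpinb8 rose, with signals of 7.31, 7.34 and 7.50 on modified PEEK and 6.73, 6.87 and 6.63 on pristine PEEK, a limma difference of 0.64 ± 0.11 (SE, n = 3 each; adjusted p = 0.00658). It lies in the same chromosome 1 cluster as Serpinb2. The genes on either side of Serpinb2, singled out after their values were seen, are Serpinb7, with 1.81 ± 0.09 on modified and 1.99 ± 0.12 on pristine PEEK, and Serpinb10, with 3.54 ± 0.23 and 3.72 ± 0.16 (SD, n = 3). Neither passed limma, and both were at or below background on modified PEEK. The brightest of the others, Serpinb1a, was at 4.85 ± 0.20 on modified and 4.98 ± 0.21 on pristine PEEK, and Serpinb1c at 4.33 ± 0.10 and 4.52 ± 0.29. Closely related serpin genes can share array probes, so their values need not be independent.

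**Figure D4:**
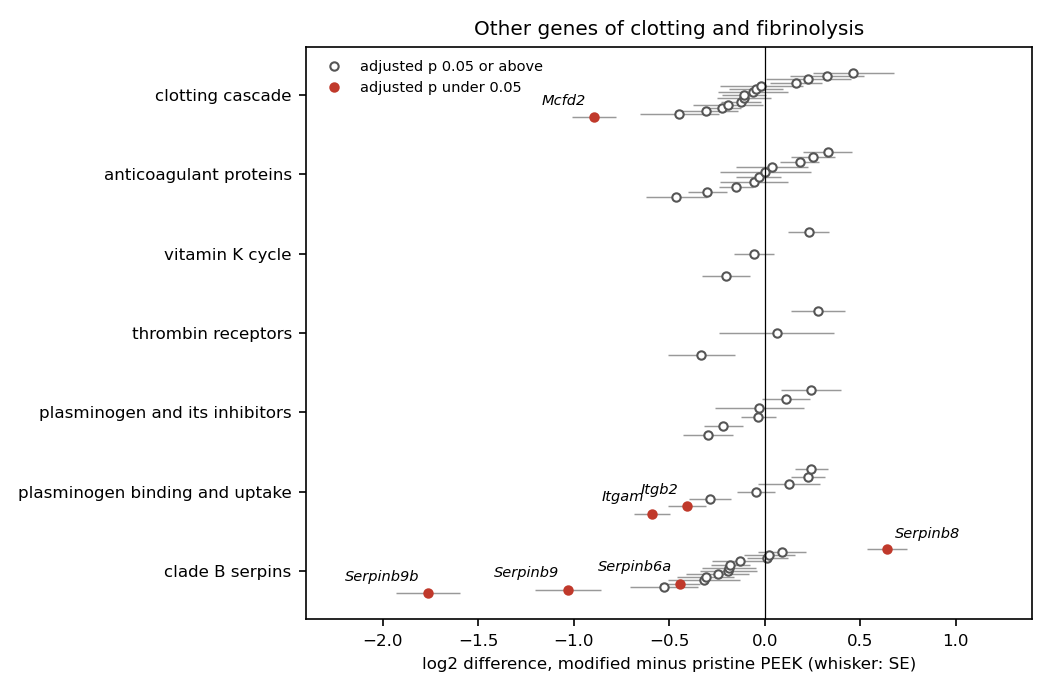
Log2 difference, modified minus pristine PEEK (x axis, whiskers SE), for the 59 measured genes of the 7 further lists, with filled red points for an adjusted p under 0.05 in limma. The 7 filled points are Mcfd2, Itgam, Itgb2, Serpinb9b, Serpinb9, Serpinb6a and, on the right at 0.64, Serpinb8.

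The members differed in how far their differences depended on single arrays. Leaving out each array in turn gave -3.15 to -2.91 for Procr, -1.33 to -1.12 for Plaur and -0.74 to -0.65 for Plau. For Serpinb2 the range was -2.73 to -1.82, with the lowest value reached without pristine replicate 2. F10 ranged from 0.39 to 0.47 and F7 from 0.12 to 0.32. Plat ranged from -0.18 to 0.17, F3 from -0.32 to 0.0764 and Thbd from -0.0796 to 0.42, so that none of these kept its direction.

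**Figure D5:**
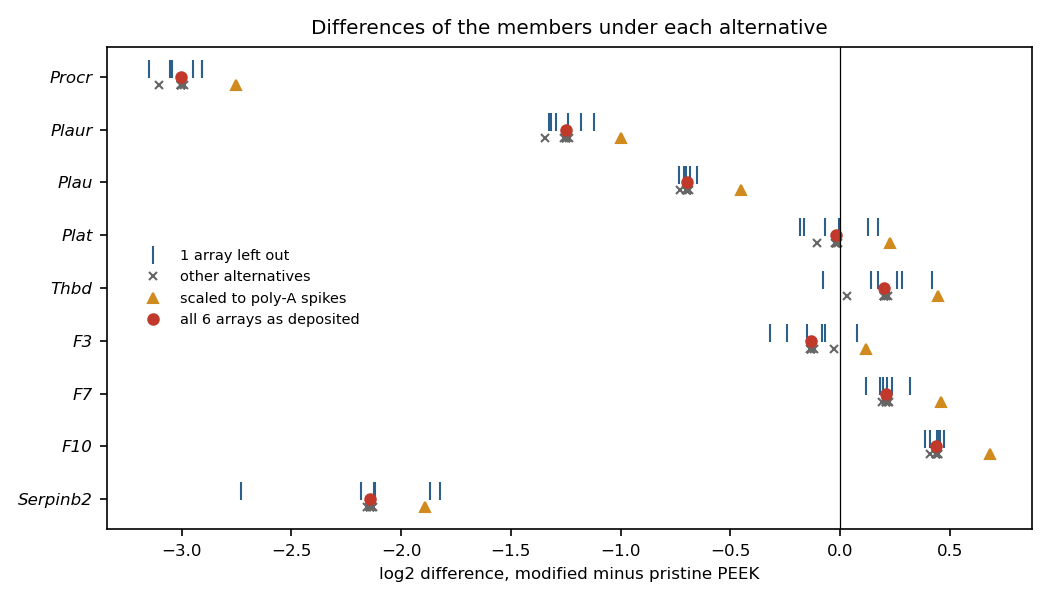
Log2 difference, modified minus pristine PEEK (x axis), of each member with all 6 arrays as deposited (red circle), with 1 array left out (blue ticks), scaled to the poly-A spikes (orange triangle) and under the other alternatives (grey crosses). Procr, Plaur, Plau and Serpinb2 stay left of 0 and F10 and F7 right of it in every setting, while Plat, Thbd and F3 cross it.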

How the data were processed

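Biotin-labelled cDNA from total RNA was measured on Affymetrix arrays, per the labels. The authors deposited 1 log2 signal for each probe set and array. The submitters' processing notes name RMA (background correction, quantile normalization and probe summary) with no version; that the scale is log2 was read from the range of the values. Quantile normalization hides a change in total RNA per cell. No genome build or batch is given in the sources used here.

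Of 29129 features, 19572 probe sets named 1 gene each, and the brightest probe set was kept where a gene had several, leaving 19505 genes. The test of modified against pristine PEEK used limma 3.58.1 (R 4.3.3; lmFit, then eBayes with no trend; no covariate; two-sided), with Benjamini-Hochberg adjustment over all genes and a threshold of 0.05. The fit was tested on simulated data. Differences are modified minus pristine PEEK on the log2 scale, from which folds were taken. The number of arrays limits the precision.

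Members and lists were chosen with earlier results of these data known. Named were all members, each list gene that passed, up to 2 of the brightest that did not, and the 3 genes nearest to Procr and to Plaur, leaving out predicted genes; exceptions are stated. Promoter windows came from RefSeq (GRCm38.p6). Alternatives were renormalization, centring on medians, scaling to 24 poly-A spike probe sets, leaving out the dimmest 25% of genes, averaging probe sets, an intensity trend, weighting of arrays, a block for the replicate number, leaving out each array, and the whole promoter window.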

Additional observations from a re-analysis of the deposited data

How the results depend on the processing

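Quantile normalization again, centring on medians, leaving out the dimmest 25% of genes, averaging probe sets and array weights left the counts over all genes, members and further pathway genes within 1.5 times; the dimmest 25% held F3 and F7. Scaling to the poly-A spikes (6.71 ± 0.14 on modified and 6.96 ± 0.15 on pristine PEEK, SD, n = 3) moved the median difference of all genes to 0.26, with 1575 genes higher and 290 lower, and 3 of the further pathway genes higher and 3 lower. All member differences then moved up by the same amount, to -2.75 for Procr, -0.45 for Plau, -1.89 for Serpinb2 and 0.68 for F10. Plau was no longer called. With an intensity trend 3305 genes passed, 1586 higher and 1719 lower, and 13 of the further pathway genes, 4 of them higher.

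With the replicate number as a block, 1268 genes passed, 646 higher and 622 lower, and 0 members were called higher, since F10 was lost; 5 of the further pathway genes passed, without Itgb2 and Serpinb6a. Deviations of same-numbered arrays from their surface means had correlations of -0.17, -0.16 and 0.0685 over genes. The labels do not say whether same-numbered arrays were paired, and these correlations cannot settle it. Without 1 array the genes passing ran from 1142 to 1863 (594 to 903 higher, 548 to 1048 lower), members called from 3 to 4 (0 to 1 higher, 3 to 4 lower) and further pathway genes from 5 to 7. The lowest count over all genes, 1142, was without pristine replicate 3; it was 1241 without pristine replicate 1, 1239 without pristine replicate 2 and 1300 without modified replicate 3. The cause was not tested; a fit without 1 array has fewer samples. The whole promoter window held the AP-1 motif in the same 4 members (7.81% of all windows). Signal near background limits Plat, F3, F7 and the modified PEEK level of Procr and Serpinb2. Thbd was above background on every array and is limited by the spread of its modified PEEK arrays (SD 0.51).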
